A study of Homo sapiens with 20 samples.

Results

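The response of ABC-1 cells to the tankyrase inhibitor G007-LK was measured by RNA sequencing in 4 libraries. ABC-1 is an established human lung adenocarcinoma line. The cells were grown for 24 h with 1 µM G007-LK (2 libraries) or with the solvent DMSO at 0.01% (2 libraries), and the labels call the 2 libraries of a group biological replicates. The response thus stands for 1 line, 1 dose and 1 time. The series holds 20 libraries, with the same pair of treatments in RKO and COLO320DM (colon), UO-31 (kidney) and OVCAR-4 (ovary), the lines that served here for comparison. Of the 21201 gene symbols in the table of the whole series, 10910 averaged 1 RPKM or more as deposited over the 4 ABC-1 libraries and were tested. RPKM is the number of reads on a gene, per kilobase of its length and relative to the depth of the library.

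Tankyrases are poly-ADP-ribosyltransferases. They mark proteins such as AXIN and the angiomotins with chains of ADP-ribose, the ubiquitin ligase RNF146 recognises these chains, and the marked proteins are degraded. An inhibitor therefore stabilises AXIN, the scaffold of the complex that degrades beta-catenin, and the angiomotins, which hold the co-activator YAP away from the TEAD factors in the nucleus. Transcripts that report on WNT/beta-catenin, YAP and PI3K/AKT/FOXO signaling, on the cell cycle and on growth were examined as groups.

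From the spacing of the RPKM values, the whole reads behind 10891 of the 10910 genes were recovered. The libraries held 30469864 and 31624014 gene reads with G007-LK, against 31143412 and 31122328 with DMSO, and the median gene had between 864 and 919 reads. The totals by which the RPKM values had been divided differed more, at 1.037 and 1.11 with G007-LK, against 1 and 0.9348 with DMSO, relative to DMSO replicate 1. As deposited, the log2 fold changes of all genes had a median of -0.14. After each library was scaled to the median ratio of the line the median was 0.00, and it was also 0.00 after scaling to equal gene reads, so levels are given below as rescaled RPKM unless stated. A member of a list counts as measured where it is among these genes, and a gene is called where limma gave an adjusted p under 0.05 (Benjamini-Hochberg over all 10910 genes), and fold changes are those of log2(rescaled RPKM + 0.5), which understates the change of genes at low levels. RPKM is a value per length, so levels of different genes can be set side by side.

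The line was checked against markers. Its epithelial genes were high, with KRT8 at 1839 and 1966 RPKM with G007-LK, against 1570 and 1436 RPKM with DMSO, and EPCAM at 580.4 and 572 RPKM with G007-LK, against 549 and 554 RPKM with DMSO. Markers of differentiated lung cells were at or near 0: SFTPC, SCGB1A1 and FOXA2 were at 0 in all 4 libraries, and NAPSA and SFTPB stayed at or under 0.297 RPKM. The 9 mesenchymal markers summed to 6.47 and 6.62 RPKM with G007-LK, against 5.04 and 5.52 RPKM with DMSO, the 6 blood markers to 2.38 and 2.23 RPKM, against 1.57 and 1.34 RPKM, and the 4 endothelial markers to 0.73 and 0.91 RPKM, against 0.28 and 0.35 RPKM. These sums were small beside the epithelial genes in every library. The 6 squamous markers summed to 100.8 and 102.2 RPKM with G007-LK, against 49.1 and 48.6 RPKM with DMSO, nearly all of it SOX2. The part of other cell states in the results was not tested.

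G007-LK changed the expression of many genes in ABC-1. Of the 10910 genes tested, 3422 were higher (31.4%) and 3534 lower (32.4%) with G007-LK. At least 1.5-fold, 820 were higher (7.52%) and 1023 lower (9.38%), and at least 2-fold, 217 were higher and 268 lower. The values as deposited gave 1816 higher and 4498 lower, and 5342 genes were called alike in both analyses and 0 with opposite signs. Genes at high levels were called lower more often, at 41.35% of those with a deposited mean of 27.72 RPKM or more and 21.74% of those with 4.245 RPKM or less, whereas the shares called higher were 29.49% and 33.6%. With so many calls, the counts of gene groups are to be read against these shares.

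Among called genes that averaged 5 RPKM or more on the values as deposited, the largest rise was that of AKR1C3, an aldo-keto reductase that reduces steroids and prostaglandins (GRCh37 chromosome 10 from 5077546 to 5149878). It had 33.2 and 34.4 RPKM with G007-LK, against 3.18 and 2.86 RPKM with DMSO (log2 fold change 3.28, standard error 0.07, adjusted p = 9.8e-13). Its close paralogs can share reads with it. AKR1C1 had 1.35 and 1.46 RPKM with G007-LK, against 0.0855 and 0.0563 RPKM with DMSO, and AKR1C2 had 1.14 and 1.11 RPKM, against 0.0544 and 0.0538 RPKM, both under the limit for testing. ANKRD35, an ankyrin repeat gene, followed with 24.1 and 24.5 RPKM with G007-LK, against 2.37 and 2.35 RPKM with DMSO (log2 fold change 3.12, standard error 0.07, adjusted p = 9.8e-13). The next rises were KRT15, a basal keratin (2.18), the mTORC1 inhibitor DDIT4 (2.10), LYPD3, a surface protein (2.10), the pro-apoptotic BMF (2.08), FA2H, which hydroxylates fatty acids (2.02), the heme oxygenase HMOX1 (2.02), the pro-apoptotic BBC3 (1.89) and KRT13, a keratin of stratified epithelia (1.87). GBP2, an interferon-induced GTPase, MUC15, a membrane mucin, PIK3IP1, an inhibitor of PI3K, MAN1A1, a mannosidase of the Golgi, and CAPS, a calcium-binding protein, completed the 15 largest rises, between 1.65 and 1.76. In all 15 genes both G007-LK libraries lay above both DMSO libraries, which the choice of these genes required.

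In the same class, the largest fall was that of GJA5, which encodes connexin 40, a gap junction protein (GRCh37 chromosome 1 from 147228332 to 147245466). It had 1.25 and 1.36 RPKM with G007-LK, against 8.38 and 8.8 RPKM with DMSO (log2 fold change -2.33, standard error 0.09, adjusted p = 1.4e-10). ANKRD1 and CTGF, both targets of YAP, fell (-2.18 and -1.96) and are given with their group below. CAV1, the main protein of caveolae (-1.93), RDH10, which makes retinal from retinol (-1.88), F3, the tissue factor that starts coagulation (-1.86), and FAM198B, a Golgi protein (-1.84), were also among the 15 largest falls. CDC45, ORC6 and DSCC1 of DNA replication (-1.63, -1.60 and -1.56), CDCA7 (-1.62), the acetylcholinesterase ACHE (-1.60), the formin DIAPH3 (-1.58) and the tubulin TUBB6 (-1.57) belonged to them too.

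**Figure D1:**
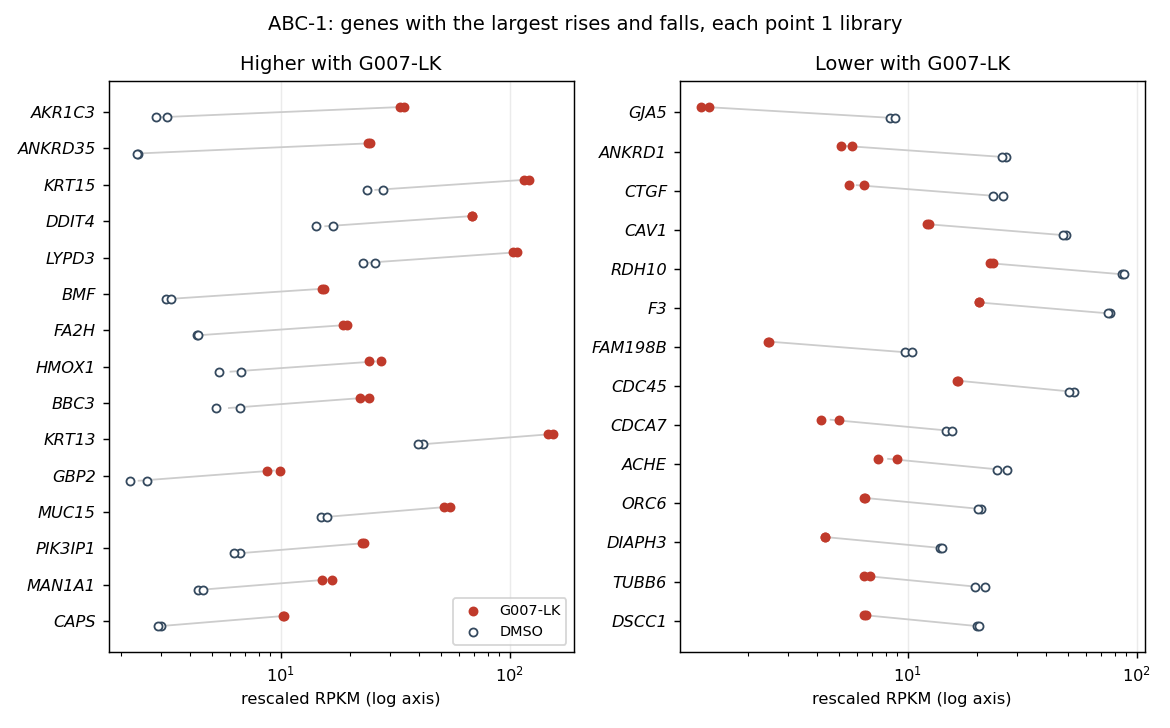
Levels in rescaled RPKM (log axis) of the 15 genes with the largest rises and of 14 of the 15 with the largest falls among called genes that averaged 5 RPKM or more as deposited, with G007-LK libraries as filled points above the open points of the DMSO libraries and a line between the group means. The distance between replicates is small beside that between the groups, and AKR1C3 at 33.2 and 34.4 RPKM with G007-LK, against 3.18 and 2.86 RPKM with DMSO, shows the widest gap.

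In absolute level, the largest differences were in abundant genes. TPT1, the translationally controlled tumor protein, had 4414 and 4516 RPKM with G007-LK, against 3382 and 3343 RPKM with DMSO, the elongation factor EEF1A1 had 3205 and 3252 RPKM with G007-LK, against 2275 and 2333 RPKM with DMSO, and KRT19, a simple epithelial keratin, had 2031 and 2191 RPKM with G007-LK, against 1315 and 1168 RPKM with DMSO. In the other direction, ACTB, cytoplasmic actin, had 2542 and 2681 RPKM with G007-LK, against 3746 and 3563 RPKM with DMSO, and GAPDH, a glycolytic enzyme, had 1685 and 1818 RPKM with G007-LK, against 2361 and 2222 RPKM with DMSO. Both genes often serve as loading references, and both fell here (log2 fold changes -0.49 and -0.39, adjusted p = 7.6e-06 and 8.1e-05), as they did on the values as deposited. TUBB, a beta-tubulin (-1.01), HSPA8, the constitutive cytosolic HSP70 (-0.94), and FSTL1, a secreted glycoprotein (-1.01), were the other large falls in level. EEF1A1, ACTB, GAPDH and TUBB have many near-identical copies in the genome, among which the counting can split reads.

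Of the 22 genes of tankyrases and their substrates, all measured, 9 rose and 8 fell (4 and 8 on the values as deposited). Over all genes, 31.4% rose and 32.4% fell. The median log2 fold change of the list was 0.09, against 0.00 over all genes. The transcript of the second tankyrase rose, TNKS2 having 22.2 and 19.8 RPKM with G007-LK, against 15.2 and 16.8 RPKM with DMSO (log2 fold change 0.38, standard error 0.07, adjusted p = 3.3e-04). TNKS had 4.11 and 3.7 RPKM with G007-LK, against 2.96 and 3.29 RPKM with DMSO (log2 fold change 0.28, standard error 0.09, adjusted p = 0.0145), a call lost on the values as deposited (adjusted p = 0.323) and without DMSO replicate 1 or G007-LK replicate 1. RNF146 also rose, with 6.33 and 6.81 RPKM with G007-LK, against 4.42 and 4.77 RPKM with DMSO (log2 fold change 0.47, standard error 0.08, adjusted p = 1.3e-04).

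Among the substrates, AXIN1 fell to 8.91 and 9.44 RPKM with G007-LK, against 12.2 and 12.3 RPKM with DMSO (log2 fold change -0.40, standard error 0.07, adjusted p = 1.4e-04). AXIN2, which is both a substrate and a feedback target of beta-catenin, had 2.7 and 2.82 RPKM with G007-LK, against 5.38 and 5.44 RPKM with DMSO (log2 fold change -0.86, standard error 0.08, adjusted p = 5.8e-07). The angiomotins went apart. AMOTL2 had 59.9 and 60.3 RPKM with G007-LK, against 114 and 119.8 RPKM with DMSO (log2 fold change -0.96, standard error 0.05, adjusted p = 3.9e-09) and AMOTL1 was also lower (-0.49), whereas AMOT had 37.1 and 33.4 RPKM with G007-LK, against 28.8 and 32.3 RPKM with DMSO (log2 fold change 0.20, adjusted p = 0.0195), a call that was lost on the values as deposited (adjusted p = 0.606) and without DMSO replicate 1 or G007-LK replicate 1. The telomere protein TERF1 fell (-0.42), and FNBP1 and TNKS1BP1, which bind membranes and tankyrase, rose (0.48 and 0.45).

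Of 17 measured genes of the WNT/beta-catenin complex and its targets, 6 rose and 4 fell, where 31.4% and 32.4% of all genes did. The feedback inhibitors AXIN2 and ZNRF3 (-0.56), the WNT antagonist DKK1 (-0.62) and BMP4 (-0.38, not called without DMSO replicate 2 or G007-LK replicate 1) were lower. RNF43, also a feedback inhibitor of WNT receptors, went the other way (0.58), as did ASCL2, a stem cell factor of the intestine (0.76), and TNFRSF19 (0.67). The list thus did not move in 1 direction, at a median of 0.06.

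The targets of YAP and TEAD were lower. Of 28 listed, 24 were measured, 20 of which fell, 16 of them at least 1.5-fold. In limma 0 rose, 0 at an unadjusted p under 0.05 and 0 by limma-voom on the recovered reads, and the median was -0.79. ANKRD1, a muscle ankyrin repeat protein used as a YAP reporter gene, had 5.1 and 5.73 RPKM with G007-LK, against 26.9 and 25.7 RPKM with DMSO (log2 fold change -2.18, standard error 0.07, adjusted p = 4.9e-11). CTGF (CCN2), a secreted matrix protein, had 6.45 and 5.52 RPKM with G007-LK, against 23.5 and 26 RPKM with DMSO (log2 fold change -1.96, standard error 0.08, adjusted p = 2.7e-10). CYR61 (CCN1), its relative, had 25.8 and 26 RPKM with G007-LK, against 72.5 and 72.8 RPKM with DMSO (log2 fold change -1.47, standard error 0.05, adjusted p = 1.5e-10). In each of these genes the groups lay far apart beside the distance between replicates.

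Further targets showed the same direction. F3 had 20.5 and 20.4 RPKM with G007-LK, against 76.3 and 74.8 RPKM with DMSO. AJUBA, a LIM protein that restrains LATS kinases (-1.32), FJX1 (-1.31), IGFBP3, a binding protein of insulin-like growth factors (-1.13), NT5E, the surface nucleotidase CD73 (-1.10), EDN1, endothelin (-1.15), and THBS1, thrombospondin (-0.76), fell too. The members without a call were ARHGEF17 (-0.17), RBMS3 (-0.05), MYOF (0.02) and ARHGAP29 (0.06).

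The window of 250 bases upstream of the RefSeq start of ANKRD1 (GRCh38.p14, chr10:90921088-90921337, minus strand, read 5′ to 3′) is shown because this gene had the largest fall among the targets and its window holds 2 copies of GGAATG, the core letters bound by TEAD factors, in capitals, which begin 220 and 128 bases before the start.
ANKRD1: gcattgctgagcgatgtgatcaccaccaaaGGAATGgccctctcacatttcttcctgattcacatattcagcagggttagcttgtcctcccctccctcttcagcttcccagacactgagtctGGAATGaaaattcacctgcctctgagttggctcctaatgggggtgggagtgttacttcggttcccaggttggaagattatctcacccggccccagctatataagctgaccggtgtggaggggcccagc
GGAATG on either strand was found in the RefSeq windows (250 bases before to 50 after the start) of 5 of the 17 targets that have one, 29.4%, against 14% of all 27305 windows and 10.5% of those of the genes tested. The other 4 were LATS2, NUAK2, PTPN14 and THBS1. A match of letters is not a bound site.

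The Hippo pathway restrains YAP by phosphorylation. A list of its components, which also holds YAP1, WWTR1 and the TEAD factors, was lower in the majority. Of 16 measured, 10 fell and 3 rose (10 and 1 on the values as deposited). TEAD1 and LATS2 of this list stand also among the YAP/TEAD targets, so their falls are counted there too. Among the DNA-binding partners of YAP, TEAD4 had 14.1 and 15.2 RPKM with G007-LK, against 32.6 and 31.5 RPKM with DMSO (log2 fold change -1.10, standard error 0.06, adjusted p = 3.3e-09), TEAD1 fell (-0.64) and TEAD3 rose (0.45). YAP1 itself had 61.7 and 57.8 RPKM with G007-LK, against 51 and 55 RPKM with DMSO (0.17, adjusted p = 0.0241), a call that the values as deposited did not give (adjusted p = 0.853) and that was lost without DMSO replicate 1 or G007-LK replicate 1, and its paralog WWTR1 (TAZ) fell (-0.32). The upstream tumor suppressor NF2 (-0.70) and the kinases LATS2 (-0.51), STK3 (-0.49) and STK4 (-0.33) were lower. LATS1 did not pass the test (-0.12, adjusted p = 0.243).

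Among receptors and adaptors of growth factor signaling, 6 of 18 measured members were higher and 7 lower, shares near those of all genes, so the count says nothing particular of this list and its members are given singly. IRS1, the adaptor that couples the insulin and IGF receptors to PI3K, had 0.69 and 0.569 RPKM with G007-LK, against 3.18 and 3.25 RPKM with DMSO (log2 fold change -1.72, standard error 0.11, adjusted p = 7.1e-09), whereas IRS2 did not pass the test (-0.20, adjusted p = 0.0951). MET, the receptor of hepatocyte growth factor, had 21.9 and 21.1 RPKM with G007-LK, against 47.9 and 50.4 RPKM with DMSO (log2 fold change -1.17, standard error 0.06, adjusted p = 1.1e-09). EPHA2, an ephrin receptor, had 17.9 and 20.1 RPKM with G007-LK, against 41.7 and 43.3 RPKM with DMSO (log2 fold change -1.14, standard error 0.07, adjusted p = 3.7e-09). The FGF receptors FGFR4, FGFR2 and FGFR3 were also lower (-0.90, -0.60 and -0.47).

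On the other side, ERBB3, the kinase-poor partner of ERBB2, had 36.7 and 34.5 RPKM with G007-LK, against 22.7 and 23.7 RPKM with DMSO (log2 fold change 0.61, standard error 0.06, adjusted p = 8.1e-07). DDR1, a collagen receptor, had 187 and 191 RPKM with G007-LK, against 116 and 112 RPKM with DMSO (log2 fold change 0.73, standard error 0.05, adjusted p = 4.6e-08). INSR rose (0.41) and so did ALK, with 1.68 and 1.71 RPKM with G007-LK, against 0.761 and 0.938 RPKM with DMSO (0.70). EGFR had 35.2 and 28.4 RPKM with G007-LK, against 38 and 49.7 RPKM with DMSO. Its groups did not overlap, but its replicates lay far apart and it did not pass the test (-0.45, adjusted p = 0.104). IGF1R was at -0.01 (adjusted p = 0.912).

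Genes that ERK signaling induces were lower in 10 of 15 measured members, with 1 higher. The EGF receptor ligands HBEGF (-1.20) and TGFA (-0.65), the ERK phosphatase DUSP5 (-0.88) and the immediate early factor EGR1 (-0.66) fell. DUSP6, another ERK phosphatase, was the member that rose (0.85).

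FOXO factors are kept out of the nucleus by AKT and activate genes of growth arrest, apoptosis and autophagy. Of 31 genes that FOXO factors are known to activate, 28 were measured, of which 20 rose and 3 fell, and 14 rose at least 1.5-fold. The median was 0.54. DDIT4, which restrains mTORC1, had 68.3 and 68.7 RPKM with G007-LK, against 17 and 14.3 RPKM with DMSO (log2 fold change 2.10, standard error 0.07, adjusted p = 1.9e-10). PIK3IP1 had 22.7 and 23.1 RPKM with G007-LK, against 6.6 and 6.27 RPKM with DMSO (log2 fold change 1.75, standard error 0.07, adjusted p = 1.5e-10). SESN3, a sestrin that restrains mTORC1, had 6.08 and 5.34 RPKM with G007-LK, against 1.47 and 1.54 RPKM with DMSO (log2 fold change 1.63, standard error 0.09, adjusted p = 3.6e-09). The autophagy kinase ULK1 (1.29), KLHL24 (1.26), the repressor BCL6 (1.16) and the cyclin G2 gene CCNG2 (1.0) rose as well. The members that fell were CITED2 (-0.98), the mitochondrial superoxide dismutase SOD2 (-0.48) and GADD45A (-0.24), whose call was lost without DMSO replicate 1 or G007-LK replicate 2 (largest adjusted p = 0.194).

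In the pathway itself, 14 of 32 measured genes of FOXO factors, PI3K, AKT and mTORC1 rose and 8 fell (6 and 12 on the values as deposited). Over all genes, 31.4% rose and 32.4% fell. FOXO4 had 5.73 and 6.34 RPKM with G007-LK, against 2.8 and 2.96 RPKM with DMSO (log2 fold change 0.95, standard error 0.08, adjusted p = 2.9e-07). FOXO3 had 3.04 and 2.85 RPKM with G007-LK, against 2.21 and 2.3 RPKM with DMSO (0.32, adjusted p = 0.00658), which was not called on the values as deposited (adjusted p = 0.189) or without G007-LK replicate 1 (adjusted p = 0.0541), and FOXO1 did not pass the test (0.16, adjusted p = 0.089). PIK3R3, a regulatory subunit of PI3K, had 14.6 and 14.1 RPKM with G007-LK, against 4.65 and 4.69 RPKM with DMSO (log2 fold change 1.52, standard error 0.07, adjusted p = 6.0e-10). DEPTOR, an inhibitor of mTOR, rose (1.18), while AKT1 and AKT2 did not pass the test (both -0.14).

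The BCL2 family decides on the release of cytochrome c from mitochondria, and its BH3-only members promote death. Of 29 measured members of this family and of the death receptor pathway, 13 rose and 9 fell, where 31.4% and 32.4% of all genes did. On the values as deposited 4 rose and 10 fell, where 1816 and 4498 of all 10910 genes did. The 3 largest rises were BH3-only genes. BMF had 15.4 and 15.2 RPKM with G007-LK, against 3.15 and 3.33 RPKM with DMSO (log2 fold change 2.08, standard error 0.07, adjusted p = 8.1e-11). BBC3, which encodes PUMA (GRCh37 chromosome 19 from 47724079 to 47736023), had 22.1 and 24.3 RPKM with G007-LK, against 6.64 and 5.23 RPKM with DMSO (log2 fold change 1.89, standard error 0.10, adjusted p = 3.9e-08). BCL2L11, which encodes BIM, had 6.34 and 5.66 RPKM with G007-LK, against 2.66 and 2.48 RPKM with DMSO (log2 fold change 1.08, standard error 0.09, adjusted p = 1.0e-07).

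Other members fell or did not pass the test. The BH3-only genes BID (-0.60) and HRK (-0.69) fell, PMAIP1 (NOXA) was at 0.01 (adjusted p = 0.952), and BCL2L1, which encodes the protective BCL-XL, fell (-0.27). MCL1, another protective member, had 96.4 and 92.4 RPKM with G007-LK, against 80.9 and 87.5 RPKM with DMSO (0.17, adjusted p = 0.0239), a call absent on the values as deposited (adjusted p = 0.89) and without DMSO replicate 1 or G007-LK replicate 1. The initiator caspase CASP9 rose (0.78).

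The promoter window of BCL2L11 (GRCh38.p14, chr2:111120664-111120913, plus strand) is shown because it was the only one, of the 24 FOXO-activated genes with a window, to hold GTAAACA, the FOXO core letters, on either strand. The match, in capitals, begins 223 bases before the start.
BCL2L11: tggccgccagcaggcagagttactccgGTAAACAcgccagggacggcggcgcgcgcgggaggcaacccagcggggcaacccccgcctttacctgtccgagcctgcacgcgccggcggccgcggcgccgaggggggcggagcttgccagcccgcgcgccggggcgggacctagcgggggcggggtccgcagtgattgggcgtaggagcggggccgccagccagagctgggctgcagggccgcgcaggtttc
That share of 4.2% compares with 3.4% of all windows and 2.2% of those of the genes tested, and 1 match in 24 windows is too few to set the list apart from either.

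**Figure D2:**
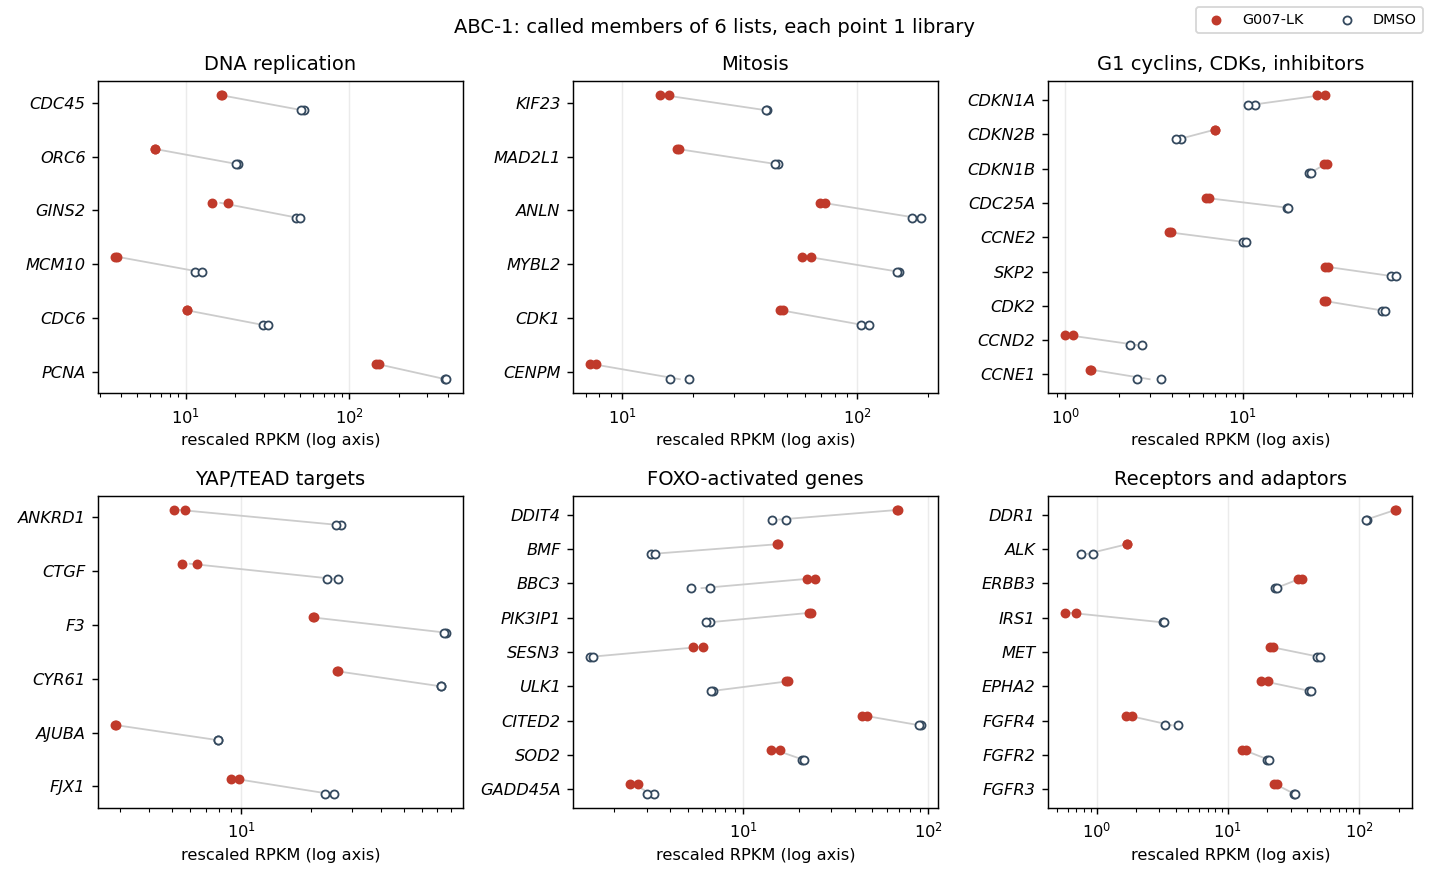
Levels in rescaled RPKM (log axis) of called members of 6 gene lists, with the G007-LK libraries as filled points above the open points of the DMSO libraries and a line between the group means. Replication and mitosis genes and YAP/TEAD targets lie lower with G007-LK, the leading FOXO-activated genes higher, and the receptors to both sides, as with IRS1 at 0.69 and 0.569 RPKM with G007-LK, against 3.18 and 3.25 RPKM with DMSO.

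Genes of cell division were lower throughout. All 43 genes of a list on E2F and DNA replication fell, 42 of them at least 1.5-fold, with a median of -1.17, and all 40 genes of a list on mitosis fell, 39 at least 1.5-fold, with a median of -0.91. Over all genes, 32.4% fell. Both counts were unchanged on the values as deposited and without any 1 of the 4 libraries. In libraries from whole cultures, fewer cells in S phase or mitosis and less of each transcript per cell cannot be told apart.

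CDC45, which opens DNA with the MCM helicase (GRCh37 chromosome 22 from 19466980 to 19508135), had 16.5 and 16.3 RPKM with G007-LK, against 53 and 50.5 RPKM with DMSO (log2 fold change -1.63, standard error 0.06, adjusted p = 9.8e-11). GINS2, of the same helicase, had 14.4 and 18.1 RPKM with G007-LK, against 47.4 and 49.6 RPKM with DMSO (log2 fold change -1.56, standard error 0.09, adjusted p = 2.2e-07). PCNA, the sliding clamp of DNA polymerases, had 147 and 152 RPKM with G007-LK, against 384 and 390.5 RPKM with DMSO (log2 fold change -1.37, standard error 0.05, adjusted p = 2.5e-10). The origin genes ORC6 and CDC6 (-1.55) and MCM10 (-1.55) fell. Among mitotic genes, KIF23, a kinesin of the midbody, had 15.8 and 14.5 RPKM with G007-LK, against 41.1 and 40.9 RPKM with DMSO (log2 fold change -1.41, standard error 0.06, adjusted p = 4.8e-10), and CDK1, the kinase that starts mitosis, had 46.8 and 48.3 RPKM with G007-LK, against 104 and 112 RPKM with DMSO (log2 fold change -1.18, standard error 0.06, adjusted p = 1.1e-09). MAD2L1 of the spindle checkpoint (-1.36), ANLN of the contractile ring (-1.32), MYBL2 (-1.29) and CENPM of the centromere (-1.17) fell too. In each of these genes the groups did not overlap. Over the 10910 genes tested, G007-LK lay wholly above DMSO in 4424 and wholly below in 4422, so separate groups alone were common. The libraries of a group lay close together beside the distance between the groups, less so for GINS2 with G007-LK (14.4 and 18.1 RPKM).

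The genes that govern entry into S phase moved with them. Of 19 measured G1 cyclins, kinases and inhibitors, 13 fell and 3 rose, and the 3 that rose were all inhibitors. CDKN1A, which encodes p21, had 26.2 and 29 RPKM with G007-LK, against 11.8 and 10.7 RPKM with DMSO (log2 fold change 1.26, standard error 0.07, adjusted p = 3.1e-09). CDKN2B (p15) rose (0.63) and CDKN1B (p27) by less (0.29), a rise not called on the values as deposited (adjusted p = 0.152).

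The phosphatase CDC25A had 6.48 and 6.17 RPKM with G007-LK, against 17.6 and 18 RPKM with DMSO (log2 fold change -1.42, standard error 0.07, adjusted p = 7.3e-10). The E cyclins CCNE2 and CCNE1 (-1.29 and -0.87), their kinase CDK2 (-1.08), CDK4 (-0.66), the D cyclin CCND2 (-0.96) and SKP2, the ubiquitin ligase subunit that removes p27 (-1.24), fell. The inhibitors of CDK4 and CDK6 did not move as a class, since CDKN2C (-0.49) and CDKN2D (-0.57) fell and CDKN2A did not pass the test (-0.22, adjusted p = 0.205).

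Of 23 measured targets of p53, 8 were higher and 9 lower (8 and 13 on the values as deposited), shares near those of all genes. BBC3 and CDKN1A, TP53INP1 (1.38) and GDF15 (0.79) rose, and AEN (-1.19) and PLK2 (-1.05) fell. Several members of this list stand also in others and are counted there too, among them BBC3, SESN1 and GADD45A in the FOXO list. CDKN1A is also among the inhibitors, and BBC3, BAX and TNFRSF10B are also in the list of the BCL2 family and death receptors.

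In the MYC network, MYC itself lay at 14.2 and 14.2 RPKM with G007-LK, against 14.8 and 15.5 RPKM with DMSO. It did not pass the test on the rescaled values (-0.09, adjusted p = 0.232). As deposited, log2 fold changes lay lower (median -0.14 over all genes), and that of MYC is shifted with them. Its paralog MYCN was present at a higher level and fell, with 36.5 and 37.6 RPKM with G007-LK, against 85.6 and 81.6 RPKM with DMSO (log2 fold change -1.16, standard error 0.06, adjusted p = 9.6e-10). MXD4, which competes with MYC for the partner MAX and represses its targets, had 42.4 and 45.5 RPKM with G007-LK, against 15.8 and 14 RPKM with DMSO (log2 fold change 1.53, standard error 0.07, adjusted p = 5.2e-10). MNT, a repressor of the same kind, had 9.64 and 9.49 RPKM with G007-LK, against 4.62 and 4.77 RPKM with DMSO (log2 fold change 0.95, standard error 0.07, adjusted p = 5.8e-08). Of the 12 members measured, 4 rose and 3 fell (3 and 4 on the values as deposited), where 31.4% and 32.4% of all genes did.

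Genes that the MYC proteins are known to activate in growth were lower. Of 63 genes of ribosome biogenesis and RNA polymerase I, 56 fell and 1 rose, at a median of -0.58. LYAR, a nucleolar protein, had 11.6 and 11.1 RPKM with G007-LK, against 35.1 and 32.9 RPKM with DMSO (log2 fold change -1.54, standard error 0.06, adjusted p = 2.7e-10). NOP16 (-1.17), BOP1 (-1.11), EBNA1BP2 (-1.08) and TCOF1, the treacle protein of rRNA synthesis (-0.95), fell, and so did the abundant nucleolar proteins NCL and NPM1, NPM1 having 559.8 and 574 RPKM with G007-LK, against 831 and 837 RPKM with DMSO (-0.56). The member that rose was TAF1D (0.16, adjusted p = 0.0291), and this call did not hold on the values as deposited (adjusted p = 0.932) or without DMSO replicate 1 or either G007-LK library.

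Promoter windows of 17 of the 54 genes of ribosome biogenesis with one held the E-box CACGTG, which MYC with MAX binds, or 31.5%, against 7.4% of all windows and 10.6% of those of the genes tested. In the MYC network 3 of 11 held it (MXD4, MNT and MLX), and in a list on lysosome and autophagy 9 of 36, or 25%. UTP20, of the small subunit processome, and MXD4 are shown, because their transcripts went in opposite directions: UTP20 had 3.19 and 2.92 RPKM with G007-LK, against 5.0 and 5.34 RPKM with DMSO (log2 fold change -0.68, standard error 0.08, adjusted p = 8.9e-06). The windows are the 250 bases before the start, in GRCh38.p14, with CACGTG in capitals 10 bases before the start in UTP20 (chr12:101279855-101280104, plus strand) and 238 bases before it in MXD4 (chr4:2262110-2262359, minus strand).
UTP20: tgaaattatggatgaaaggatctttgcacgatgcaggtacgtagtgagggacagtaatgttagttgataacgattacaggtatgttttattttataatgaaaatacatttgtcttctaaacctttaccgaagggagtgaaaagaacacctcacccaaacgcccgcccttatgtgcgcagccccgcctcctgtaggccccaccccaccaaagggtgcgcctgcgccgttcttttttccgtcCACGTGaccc
MXD4: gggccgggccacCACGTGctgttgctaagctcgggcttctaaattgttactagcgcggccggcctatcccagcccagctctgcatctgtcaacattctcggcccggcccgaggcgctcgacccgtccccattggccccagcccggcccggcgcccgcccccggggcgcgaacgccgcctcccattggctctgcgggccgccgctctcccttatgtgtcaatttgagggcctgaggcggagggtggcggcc
The E-box letters therefore stood in promoters of genes that rose and of genes that fell.

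Nucleotide and polyamine synthesis was lower, with 27 of 30 genes down, at a median of -0.64. Thymidylate synthase TYMS (-1.30), the spermine synthase SMS (-1.14) and MTHFD1 of folate metabolism (-1.07) fell. SAT1, which breaks polyamines down, rose, with 48.1 and 47.5 RPKM with G007-LK, against 25.5 and 23.4 RPKM with DMSO (log2 fold change 0.96, standard error 0.06, adjusted p = 9.5e-09). Of 29 cytosolic chaperones and mitochondrial folding genes, 24 fell, and 0 rose in limma (1 without DMSO replicate 1), 0 at an unadjusted p under 0.05 and 0 by limma-voom, with HSPE1 and HSPD1, the mitochondrial chaperonins, at -1.06 and -1.0.

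The ribosome itself was divided. Of 76 mitochondrial ribosomal protein genes, 56 fell and 2 rose (63 and 0 on the values as deposited), at a median of -0.32. Of 84 cytosolic ones, 46 rose and 4 fell at a median of 0.17, but this depended on scaling and on single libraries: it was 14 and 13 on the values as deposited, 22 and 13 after quantile normalization, 26 rises without DMSO replicate 2 and 13 rises without G007-LK replicate 2. The members that fell were RPL22L1 (-0.83), RPL39L (-0.82), RPL26L1 and RPL7L1, all paralogs of the constitutive proteins. These genes have many processed copies that can share reads.

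Proteasome subunits fell in 26 of 36 genes (median -0.27), with PSMB9, the immunoproteasome subunit, falling most (-0.86). Of 77 genes of the respiratory chain and ATP synthase 39 fell at a median of -0.14, and 20 without DMSO replicate 1 and 16 without G007-LK replicate 1.

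**Figure D3:**
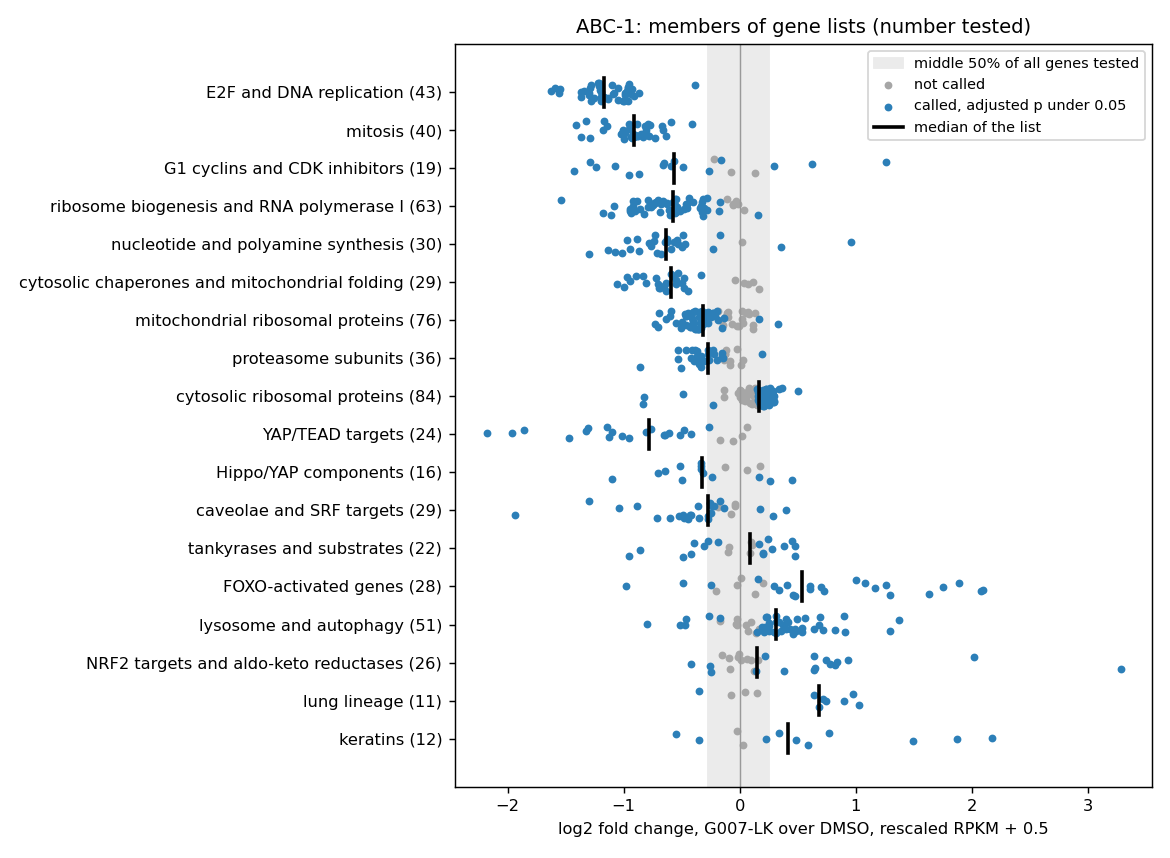
Log2 fold changes (G007-LK over DMSO) of the members of 18 gene lists, each point 1 gene, called genes in blue and the others in grey, with the median of each list as a black bar and the middle 50% of all 10910 genes as a grey band. Every member of the replication and mitosis lists lies left of 0 (medians -1.17 and -0.91), and the FOXO-activated and lysosome lists have medians right of it (0.54 and 0.31).

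Sugar metabolism was lower in 20 of 34 measured genes of glycolysis and hypoxia and higher in 7. The glucose transporter SLC2A3 had 52.3 and 50.7 RPKM with G007-LK, against 119 and 124 RPKM with DMSO (log2 fold change -1.23, standard error 0.06, adjusted p = 6.0e-10), and lactate dehydrogenase LDHA had 199 and 197 RPKM with G007-LK, against 394 and 392 RPKM with DMSO (log2 fold change -0.99, standard error 0.05, adjusted p = 2.3e-09). The hexokinase HK2 (-1.0), the lactate transporter SLC16A1 (-0.92) and adrenomedullin ADM (-1.21) fell. Not all hypoxia genes went with them: NDRG1 (0.95) and the prolyl hydroxylase P4HA2 (0.85) rose.

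Sterol and fatty acid synthesis counted 14 rises and 6 falls among 32 genes, against 7 and 13 on the values as deposited, and the falls were 3 without G007-LK replicate 1. SREBF1, the factor that activates lipogenic genes, had 129 and 135 RPKM with G007-LK, against 64.2 and 59.8 RPKM with DMSO (log2 fold change 1.08, standard error 0.06, adjusted p = 2.2e-09), and its targets SCD, the stearoyl-CoA desaturase (0.80), and FASN, the fatty acid synthase (0.51), rose. TM7SF2, a sterol reductase, rose further (1.37). The 6 falls were EBP (-0.67), CYP51A1 (-0.36), HSD17B7 (-0.28), MVK (-0.26), ACLY (-0.21) and NSDHL (-0.19). The list thus did not move in 1 direction. Its median was 0.15 in ABC-1. Over the members also tested in each other line it was 0.30 in COLO320DM, 0.26 in RKO, 0.09 in OVCAR-4 and -0.05 in UO-31.

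Genes of lysosomes and autophagy rose as a group, in 36 of 51 measured members, with 6 lower and a median of 0.31. The lysosomal protease cathepsin D, CTSD, had 539 and 574 RPKM with G007-LK, against 387 and 381 RPKM with DMSO (log2 fold change 0.53, standard error 0.06, adjusted p = 1.8e-06). The membrane protein LAMP1 had 162 and 167 RPKM with G007-LK, against 126 and 130.2 RPKM with DMSO (log2 fold change 0.36, standard error 0.05, adjusted p = 4.8e-05). GPNMB (1.37), the autophagy protein WIPI1 (0.91), acid sphingomyelinase SMPD1 (0.90), the autophagy receptor SQSTM1 (0.82) and the glucosidase GAA (0.72) rose. The factors that drive such genes differed, since TFE3 rose (0.43) and TFEB (-0.46) and MITF (-0.80) fell at lower levels.

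The promoter window of LAMP1 (GRCh38.p14, chr13:113296989-113297238, plus strand) is shown for its repeated E-boxes, the core of the element that TFE factors bind in lysosomal genes. It holds 5 copies of CACGTG, in capitals, which begin 192, 176, 159, 142 and 28 bases before the start.
LAMP1: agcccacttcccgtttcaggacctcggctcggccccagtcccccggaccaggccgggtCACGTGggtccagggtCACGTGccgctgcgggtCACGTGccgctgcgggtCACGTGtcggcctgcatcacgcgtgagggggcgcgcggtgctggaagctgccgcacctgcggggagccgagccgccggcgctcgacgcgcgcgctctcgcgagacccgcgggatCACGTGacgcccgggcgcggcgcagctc
The windows of CTSA, CTSD, GAA, NEU1, CLN3 and ATG14 also held the letters and their transcripts rose (CLN3 and NEU1 not on the values as deposited), while MCOLN1 (-0.03) and ATP6V0D1 (0.09) held them and did not pass the test.

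Genes of the NRF2 response and aldo-keto reductases showed 13 rises and 3 falls among 26 (11 and 8 on the values as deposited). Beside AKR1C3, heme oxygenase HMOX1 had 24.3 and 27.3 RPKM with G007-LK, against 6.7 and 5.36 RPKM with DMSO (log2 fold change 2.02, standard error 0.10, adjusted p = 2.1e-08), and the quinone reductase NQO1 had 39.8 and 40.8 RPKM with G007-LK, against 22 and 22.5 RPKM with DMSO (log2 fold change 0.84, standard error 0.06, adjusted p = 1.8e-08). Ferritin FTH1 rose (0.78). Other classical targets did not pass the test, among them GCLM (-0.09, adjusted p = 0.284), TXNRD1 (0.07, adjusted p = 0.373) and SLC7A11 (0.01, adjusted p = 0.898), and NFE2L2, the gene of NRF2, was lower (-0.25). The letters TGACNNNGC of the antioxidant response element stood in 5 of 19 windows, 26.3%, against 13.6% of all windows and 15.4% of those of the genes tested. Those 5 genes (GCLM, TXNRD1, PGD, CBR1 and AKR7A2) were without a call.

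Targets of ATF4, the factor of the amino acid response, did not move as a group, with 5 of 34 higher and 11 lower (3 and 19 on the values as deposited, and 3 higher without G007-LK replicate 2). The amino acid transporter SLC7A5 had 62 and 63.9 RPKM with G007-LK, against 141 and 141 RPKM with DMSO (log2 fold change -1.15, standard error 0.05, adjusted p = 7.3e-10).

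Keratins and genes of epithelial and lung identity were higher in part. Of 12 measured keratins, 8 rose and 2 fell (7 and 4 on the values as deposited). KRT15 had 121 and 116 RPKM with G007-LK, against 28.1 and 23.7 RPKM with DMSO (log2 fold change 2.18, standard error 0.07, adjusted p = 2.7e-10), KRT13 had 148 and 154 RPKM with G007-LK, against 41.9 and 39.9 RPKM with DMSO (log2 fold change 1.87, standard error 0.06, adjusted p = 2.2e-11), and KRT6A had 2.96 and 2.71 RPKM with G007-LK, against 0.773 and 0.604 RPKM with DMSO (1.49), whereas KRT4 (-0.55) and KRT17 (-0.35) fell. The basal markers TP63, KRT5 and KRT14 stayed at or under 0.166 RPKM in all 4 libraries.

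Of 31 listed genes of the lung lineage, 11 were measured, of which 7 rose and 1 fell. The median was 0.68 in ABC-1. Over the members also tested in each other line it was 0.52 in OVCAR-4, 0.27 in COLO320DM, 0.20 in UO-31 and 0.03 in RKO. SOX2, a factor of airway and squamous progenitors, had 97.6 and 99.1 RPKM with G007-LK, against 48.1 and 47.7 RPKM with DMSO (log2 fold change 1.03, standard error 0.05, adjusted p = 1.8e-09). The pioneer factor FOXA1 had 14.2 and 13.7 RPKM with G007-LK, against 7.26 and 7.29 RPKM with DMSO (log2 fold change 0.90, standard error 0.07, adjusted p = 4.7e-08). HOPX (0.98), ELF3 (0.74), the secretory gene AGR2 (0.72) and the mucin MUC1 (0.68) rose as well. Tight and adherens junction genes split, with the claudin CLDN3 higher (0.92) and CLDN1 lower (-1.16), and 12 of 27 members of the junction list higher and 6 lower.

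The genes of caveolae and the targets of SRF, the factor that answers to actin, were lower in 22 of 29 members, with 3 higher (1 on the values as deposited and without DMSO replicate 1 or either G007-LK library). CAV1 had 12.4 and 12.2 RPKM with G007-LK, against 48.9 and 47.8 RPKM with DMSO (log2 fold change -1.93, standard error 0.06, adjusted p = 2.2e-11), its partners CAV2 (-1.04) and PTRF, the cavin (-0.88), fell, and so did the actin-binding CALD1 (-1.30) and FLNA (-0.60). Tubulin genes fell in 11 of 17. In the NOTCH pathway, 8 of 14 members rose, among them the receptor NOTCH3 (0.58), the ligand JAG1 (0.55) and the target HES1, with 36 and 37 RPKM with G007-LK, against 15.6 and 14 RPKM with DMSO (log2 fold change 1.27, standard error 0.06, adjusted p = 1.3e-09), while the target NRARP fell (-0.69).

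The response of ABC-1 was then set against that of each other line, as the difference of the log2 fold changes in a limma fit over the 8 libraries of both lines. ABC-1 and RKO shared 1 culture medium and the other lines had another, so that medium and line cannot be told apart against those lines. All of these comparisons share the ABC-1 libraries. Against RKO, the line the study chose as insensitive, 2183 of 9522 genes changed more upward in ABC-1 (22.9%) and 2855 more downward (30.0%). Against OVCAR-4 the counts were 2078 (20%) and 2552 (24.5%) of 10397, and against COLO320DM 1694 (17.2%) and 2255 (22.9%) of 9844. Against UO-31 they were 898 (8.94%) and 925 (9.21%) of 10042. This last count depended on each of the 8 libraries, since the total of 1823 became 952 to 1044 without an ABC-1 library, 839 and 864 without a UO-31 DMSO library, and 2986 and 3119 without G007-LK replicate 1 or 2 of UO-31, and it was 504 on the values as deposited.

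Cell cycle genes fell further in ABC-1 than in most lines. The difference was past the test, downward, for 43 of 43 replication genes against RKO, 42 of 43 against OVCAR-4 and 42 of 43 against COLO320DM, and for 40 of 40 mitosis genes against each of these lines. Against UO-31, 23 of 42 replication genes differed, with 8 to 32 when 1 library was left out and 5 on the values as deposited. The replication gene CDC45 was at -1.63 in ABC-1, -1.19 in UO-31, -0.47 in COLO320DM, -0.23 in OVCAR-4 and -0.05 in RKO. Of 40 mitosis genes, 0 differed there in limma at an adjusted p under 0.05, while 4 lay above and 2 below at an unadjusted p under 0.05, and the medians were -0.91 in ABC-1 and -1.01 in UO-31.

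Caveolae and SRF genes changed more downward in ABC-1 than in RKO (19 of 28), OVCAR-4 (19 of 28), COLO320DM (12 of 23) and UO-31 (18 of 29, with 9 to 19 when 1 library was left out). The median was -0.27 in ABC-1, against 0.07 in OVCAR-4, 0.05 in UO-31 and -0.02 in both RKO and COLO320DM. YAP/TEAD targets fell further in ABC-1 for 14 of 17 genes against RKO and 13 of 15 against COLO320DM, and for 12 of 24 against UO-31 (8 to 17 when 1 library was left out). Against OVCAR-4, 9 of 24 fell further and 3 less, and the medians were -0.79 and -0.62. ATF4 targets, by contrast, went less upward in ABC-1 than in COLO320DM for 27 of 33 genes, at medians of -0.06 and 0.43. FOXO-activated genes changed more upward in ABC-1 for 14 of 25 genes against RKO, 14 of 26 against OVCAR-4 and 15 of 26 against COLO320DM. More downward were 2, 4 and 6. Against UO-31, 8 of 25 changed more upward and 4 more downward (6 and 2 on the values as deposited).

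**Figure D4:**
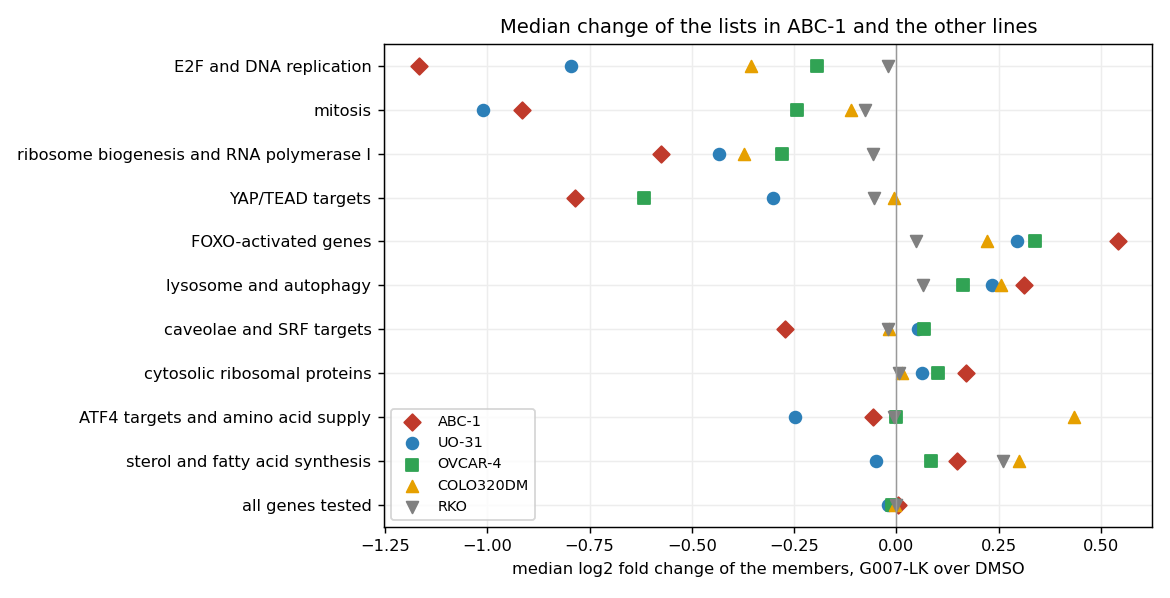
Median log2 fold change (G007-LK over DMSO, rescaled RPKM + 0.5) of the members of 10 gene lists and of all genes tested, in ABC-1 (diamonds) and the 4 other lines, over the genes tested in ABC-1 that were also tested in the line. ABC-1 lies farthest from 0 for replication (-1.17), YAP/TEAD targets (-0.79) and FOXO-activated genes (0.54), whereas UO-31 does for mitosis (-1.01). The FOXO-activated medians of OVCAR-4 (0.34), UO-31 (0.30), COLO320DM (0.22) and RKO (0.05) also lie above 0.

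Of the 8970 genes tested in all 5 lines, 399 (4.45%) changed more upward and 452 (5.04%) more downward in ABC-1 than in each of the 4 others. BBC3 led the first group. Its log2 fold change was 1.89 in ABC-1, against 0.53 for UO-31, 0.51 for COLO320DM, 0.36 for OVCAR-4 and 0.12 for RKO, and the smallest of the 4 differences was 1.36 (adjusted p = 7.4e-04 against UO-31). OSBPL5, a lipid transfer protein, had 13.4 and 13.4 RPKM with G007-LK, against 4.41 and 4.42 RPKM with DMSO (1.5 in ABC-1, smallest difference 1.16, adjusted p = 2.7e-04). LPCAT3, which puts polyunsaturated fatty acids into phospholipids, had 67.8 and 66.4 RPKM with G007-LK, against 28.4 and 28.7 RPKM with DMSO (1.22), and its log2 fold changes elsewhere ran from -0.13 to 0.12. TMEM64 (1.20), the sialyltransferase ST3GAL2 (1.23), TGIF1, a repressor of TGF-beta signaling (1.23), the fucosyltransferase FUT8 (1.33) and FAM114A1 (1.37) completed the first 8.

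RDH10 led the falls, with 23.6 and 22.9 RPKM with G007-LK, against 85.9 and 87.5 RPKM with DMSO (log2 fold change -1.88, standard error 0.06, adjusted p = 2.2e-11). In the other lines its log2 fold change lay between -0.24 and 0.19, and the smallest difference was -1.64 (adjusted p = 3.6e-08 against OVCAR-4). SMYD2, a lysine methyltransferase, had 23.9 and 25.2 RPKM with G007-LK, against 58.2 and 58.5 RPKM with DMSO (-1.23), and elsewhere it stayed between -0.12 and -0.02. The zinc finger gene ZNF92 (-1.15), the mitotic kinase NEK6 (-1.31), XRCC6BP1 (-1.09), CDCA7 (-1.62) and the formin INF2 (-1.14) were also among the first 8. For all 16 genes of both groups, each of the 4 differences stayed past the test without any 1 of the 8 libraries.

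**Figure D5:**
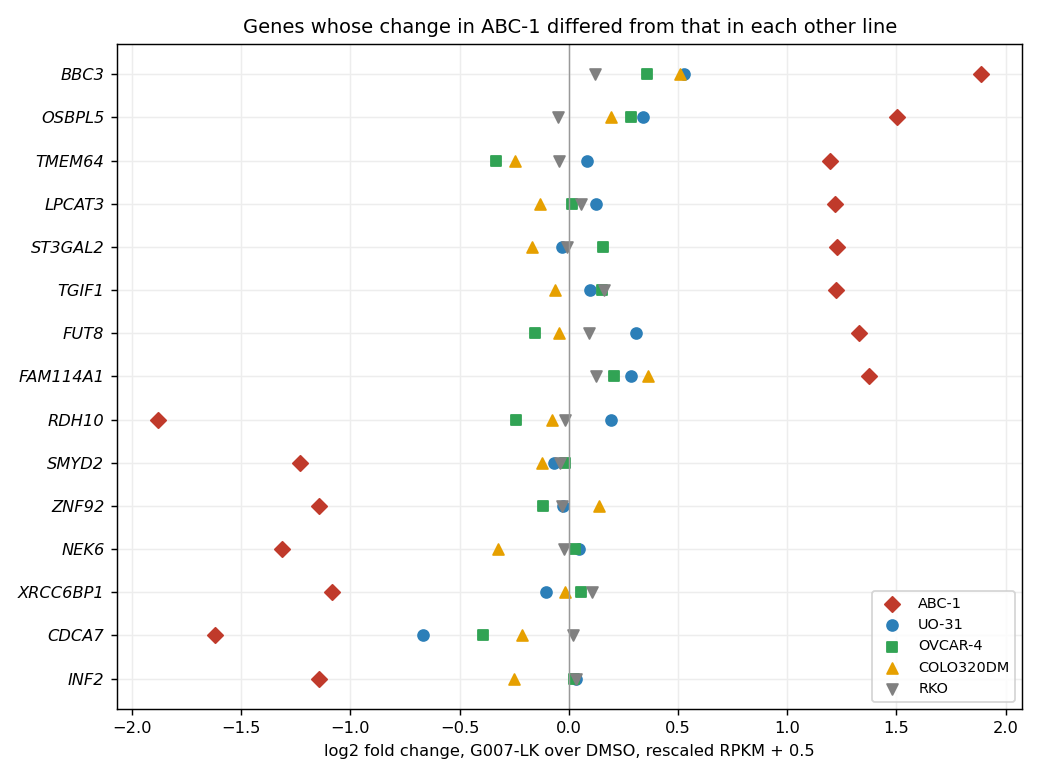
Log2 fold change (G007-LK over DMSO) in each of the 5 lines for 15 of the 16 genes that the rule named from those whose change in ABC-1 differed from that in every other line. The ABC-1 diamonds lie beyond 1 in size for all 15 genes shown, from -1.88 for RDH10 to 1.89 for BBC3, and the symbols of the other lines lie nearer to 0.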

How the data were processed

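Poly(A) RNA of the 20 libraries was sequenced on an Illumina HiSeq. Per the study's methods, the authors mapped clean reads to the hg19 gene set with SOAPaligner/SOAP2 and deposited 1 RPKM value per gene and library, not pooled over replicates. The sources used here do not state whether strand was used. The deposited tables of the authors' own comparisons (log2 ratios and NOISeq probabilities) were not used.

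Missing values were taken as 0, symbols on more than 1 entry (371) were joined, and 8 entries without a symbol, with at most 0.00134% of the RPKM, were left out. A gene entered where its 4 ABC-1 libraries averaged 1 RPKM or more as deposited. Each library was divided by its median ratio to the geometric mean of its line, and limma 3.58.1 (R 4.3.3, statmod 1.5.0; trend and robust prior variance) was fitted to log2(RPKM + 0.5), two-sided, with Benjamini-Hochberg adjustment over all genes. The fit for 2 lines covered genes that reached this mean in both. RPKM does not hold the read counts, so whole reads were recovered from the steps of the values for 99.83% of genes. With 2 libraries a group, p-values measure the spread between these libraries only.

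The rule named the 15 largest rises and falls among called genes that averaged 5 RPKM or more as deposited, the 5 largest in RPKM each way, up to 6 called members of each list each way, all members of 6 lists, and 8 genes each way that differed from all 4 other lines. Some of the genes that this rule named are not reported here. Other genes named were chosen after their values were seen. The gene lists and members were chosen with earlier results of these data known. Alternatives were the deposited scale, quantile normalization, pseudocounts of 0.1 and 1, no filter and a minimum of 5 RPKM, a replicate block, each library left out, 1 fit over 20 libraries and a NOISeq rule (probability over 0.8). Scaling to equal gene reads, limma-voom on recovered reads and a crossed block were added after seeing the data. Same-numbered libraries did not deviate together (r = -0.264 across 10910 genes between replicate 1 of both groups), so the numbers were not taken as pairs.

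Gene positions are from GENCODE 44 on GRCh37, matched by symbol for 9913 genes. Promoter windows are from RefSeq on GRCh38.p14 (1 window a gene, the first where a symbol had several), and motifs were searched on both strands. The figures were drawn with matplotlib 3.10.9 and tables made with pandas 2.3.3 and numpy 2.4.6 in Python 3.11.15.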

Additional observations from a re-analysis of the deposited data

Results flagged for a closer look

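The 8 results below are genes of the named set whose change was called in ABC-1 and in another line in opposite directions, with the difference itself past the limma test over both lines. In OVCAR-4, ACTB went up where it fell in ABC-1 (log2 fold changes -0.49 in ABC-1 and 0.27 in OVCAR-4, difference -0.76, adjusted p = 1.6e-06), and GAPDH did likewise (-0.39 and 0.12, difference -0.51, adjusted p = 5.8e-05). The beta-tubulin TUBB6 stood at -1.57 in ABC-1 and 0.15 in OVCAR-4, a difference of -1.71 (adjusted p = 9.9e-08). The keratin KRT13 rose in ABC-1 and fell in OVCAR-4 (1.87 and -0.40, difference 2.27, adjusted p = 1.4e-08).

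The fucosyltransferase FUT8 stood at 1.33 in ABC-1 and -0.15 in OVCAR-4, a difference of 1.48 (adjusted p = 1.2e-07), and TMEM64 at 1.20 and -0.33, a difference of 1.53 (adjusted p = 1.6e-06). Against UO-31, FAM198B had -1.84 in ABC-1 and 0.52 in UO-31, a difference of -2.36 (adjusted p = 1.7e-05). Against COLO320DM, FSTL1 had -1.01 in ABC-1 and 0.35 in COLO320DM, a difference of -1.36 (adjusted p = 3.6e-06). Groups of 2 libraries were too small for a test of single outlying libraries.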

How the results depend on the processing

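The count of 6956 genes called in ABC-1 was 5938 to 6449 without 1 library and 6314 on the values as deposited, where the split was 1816 higher and 4498 lower, and the NOISeq rule gave 4291 (1917 higher and 2374 lower). The 1.5-fold count of 1843 was 1849 to 1936 without 1 library and ran from 1268 (minimum of 5 RPKM, fewer genes) to 2193 (limma-voom) over the other settings. With a replicate block the counts were 6392 and 1852, against 6956 and 1843 without it, and the crossed replicate block gave 7724 and 1846.

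Genes that differed from UO-31 numbered 1823, but 504 on the values as deposited and 839 to 3119 without 1 library. Without 1 library the counts were 4189 to 5067 for RKO, 3698 to 4609 for OVCAR-4 and 2954 to 4305 for COLO320DM. Of 434 named genes, the values as deposited ended 49 calls and added 9. The sign turned for ATF5 as deposited (-0.0045), and for RPL41 (-0.0169) and RPS18 (0.00) under quantile normalization; the cause was not tested. Genes near 1 RPKM rest on the fewest reads and their small changes are the least precise.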

Other observations

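Of 22 measured histone genes, 11 rose and 8 fell (7 and 8 on the values as deposited). The variant H2AFX, which is phosphorylated at DNA breaks, had 72.3 and 82.6 RPKM with G007-LK, against 161 and 144 RPKM with DMSO (log2 fold change -0.98, standard error 0.07, adjusted p = 2.2e-07), and H2AFZ fell too (-0.89). Genes of the clustered histones went both ways. HIST1H2AC (1.57), HIST2H2BE (1.48), HIST1H2BD (1.34) and HIST1H2BK (1.07) rose, whereas HIST1H2BH (-0.87) and HIST2H2AC (-0.81) fell. The libraries were selected for poly(A), which most transcripts of the clustered genes lack, and these genes are near-identical copies that can share reads.

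Of 17 measured genes of the interferon response and antigen presentation, 6 rose and 7 fell (3 and 8 on the values as deposited). Over all genes, 31.4% rose and 32.4% fell. GBP2 had 9.93 and 8.72 RPKM with G007-LK, against 2.6 and 2.19 RPKM with DMSO (log2 fold change 1.76, standard error 0.09, adjusted p = 1.8e-09) and the signal transducer STAT2 had 36.6 and 34.2 RPKM with G007-LK, against 15 and 16.6 RPKM with DMSO (log2 fold change 1.14, standard error 0.07, adjusted p = 4.1e-09), whereas IFITM2, an antiviral membrane protein (-0.94), and TAP2, a peptide transporter (-0.67), fell. In the BMP and TGF-beta list, 11 of 25 members rose, among them the inhibitor SMAD7 (0.54) and ID2 (0.64), and 8 fell, among them the decoy receptor BAMBI (-0.74) and TGFBR2 (-0.63); as deposited the counts were 6 and 10. Of 8 measured genes of coagulation and plasminogen, 4 fell and 2 rose, PROS1 (0.30) and F2RL1 (0.17), while the values as deposited gave 4 and 0, and 1 rose without DMSO replicate 1 or either G007-LK library. PLAUR, the urokinase receptor, had 4.75 and 5.03 RPKM with G007-LK, against 14.5 and 13.8 RPKM with DMSO (log2 fold change -1.44, standard error 0.07, adjusted p = 1.0e-09) and F12 fell as well (-0.81).

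Of 15 measured small nucleolar RNA host genes, whose introns carry snoRNAs, 5 were higher and 4 lower. These shares are near those of all genes (31.4% and 32.4%), so the count says nothing particular of this list. GAS5 had 382 and 384 RPKM with G007-LK, against 272 and 269.7 RPKM with DMSO (log2 fold change 0.50, standard error 0.05, adjusted p = 1.9e-06), and SNHG15 fell (-0.88) along with SNHG17 (-0.73) and SNHG12 (-0.62). On the values as deposited 3 were higher and 6 lower.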
